A study of Homo sapiens with 16 samples.

Results

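The subject here was a set of 9 immediate early genes, IER2, IER3, IER5, EGR1, EGR3, NR4A1, MYC, ZFP36 and DUSP1, in 16HBE (16HBE14o-), an immortalised cell line from human airway epithelium. Members were chosen by gene symbol, and TPM values (transcript abundance per length, scaled to one total per library) were added over all gene IDs of a symbol. All 9 were found among 24570 symbols at 6 h and among 18627 at 3 h. The study asked which genes of these cells respond to D. rotundifolia 3×, a dilution of an ethanolic extract of the sundew Drosera rotundifolia. There were 16 RNA-seq libraries in 4 groups of 4: cells with D. rotundifolia 3× for 6 h, cells with Ctrl for 6 h, cells with D. rotundifolia 3× for 3 h and cells with Ctrl for 3 h. Ctrl was the ethanol vehicle, diluted and shaken in the same way, and both times came from separate experiments with their own Ctrl. All wells, treated and Ctrl, received fresh medium of reduced serum immediately before the addition, so a Ctrl library is not one of undisturbed cells. The study describes the 3 h libraries as biological replicates, and the labels do not say how replicates were separated, so the p-values measure the spread between these libraries.

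Immediate early genes are transcribed within minutes of a stimulus such as a growth factor, serum or stress, without a need for new protein, and their RNAs are mostly short-lived. In epithelial cells a main route to them runs from the receptor for epidermal growth factor through the ERK kinases to serum response factor (SRF) and its ternary complex partners. Several of their products then switch the response off again: DUSP1 removes phosphate from MAP kinases, and ZFP36 (tristetraprolin) binds AU-rich RNAs and speeds their decay. EGR1, EGR3, NR4A1 and MYC are transcription factors, and IER2, IER3 and IER5 are small proteins named for their early response to growth factors and stress.

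Upstream DNA is shown for EGR1, DUSP1 and IER2 because these 3 hold the sites named for serum response factor, cyclic AMP response factors and ETS proteins. Of the 9 members, 6 had an entry among the RefSeq promoters on GRCh38.p14 (EGR1, DUSP1, IER2, IER5, NR4A1 and ZFP36). The 250 bases before the annotated start of transcription are given 5′ to 3′ on the strand of the gene, with matches in capitals. EGR1 lies at chr5:138465229-138465478 on the plus strand, DUSP1 at chr5:172771196-172771445 on the minus strand and IER2 at chr19:13150161-13150410 on the plus strand.
EGR1: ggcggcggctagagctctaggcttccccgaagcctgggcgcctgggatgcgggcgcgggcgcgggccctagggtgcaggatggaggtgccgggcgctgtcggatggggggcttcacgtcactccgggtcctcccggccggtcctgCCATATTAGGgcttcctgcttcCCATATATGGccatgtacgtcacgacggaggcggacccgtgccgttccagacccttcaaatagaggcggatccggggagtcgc
DUSP1: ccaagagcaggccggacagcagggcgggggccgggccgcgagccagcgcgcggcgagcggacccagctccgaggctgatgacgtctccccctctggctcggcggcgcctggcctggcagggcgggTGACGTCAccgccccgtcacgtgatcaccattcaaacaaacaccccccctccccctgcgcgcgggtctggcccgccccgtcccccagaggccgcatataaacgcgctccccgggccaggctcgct
IER2: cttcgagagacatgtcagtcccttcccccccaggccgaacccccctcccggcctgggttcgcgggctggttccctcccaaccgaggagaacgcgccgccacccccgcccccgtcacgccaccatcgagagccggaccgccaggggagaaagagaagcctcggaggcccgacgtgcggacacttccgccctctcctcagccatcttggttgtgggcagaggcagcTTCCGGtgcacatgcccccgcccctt
In EGR1 the capitals are a pair of CArG boxes, the site bound by SRF, whose first bases lie at -105 and -83 from the start. Of 35116 promoter windows of the same length, 1.16% held a CArG box on either strand, and none of the other 5 members with an entry held one. In DUSP1 the capitals are TGACGTCA, the palindromic cyclic AMP response element, present in 1.65% of all windows. In IER2 they are TTCCGG, the reverse complement of the ETS core CCGGAA, which was also found in IER5 and in 1 of the 2 NR4A1 windows, and in 14.5% of all windows on either strand. The core GCGTG of the xenobiotic response element, on either strand and not capitalised here, was found in IER2, ZFP36 and the other NR4A1 window, and in 32.2% of all windows. A match is a run of letters, and binding was not measured.

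In GENCODE 44 on GRCh38 the genes lie apart from each other: IER5 at chr1:181088700-181092900 (plus strand, 1 exon), EGR1 at chr5:138465479-138469303 (plus, 2 exons), DUSP1 at chr5:172768096-172771195 (minus, 4 exons), IER3 at chr6:30743199-30744548 (minus, 2 exons), NR4A1 at chr12:52022832-52059507 (plus, 7 exons), IER2 at chr19:13150411-13154911 (plus, 2 exons) and ZFP36 at chr19:39406847-39409412 (plus, 2 exons). EGR3 and MYC are on chromosome 8. The identifier of IER3 differed between the tables. At 6 h its reads stood on ENSG00000137331, the copy on the primary chromosome 6. At 3 h they stood on ENSG00000235030, a copy of the same gene on an alternative sequence, with 39.8 to 114 TPM, and the primary identifier was listed at 0 in 6 of 8 libraries and reached at most 0.180 TPM. Each of the other members had a single identifier.

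Whole libraries were alike within each time. Symbols at 1 TPM or more numbered 14016 to 14239 at 6 h and 12765 to 12989 at 3 h, and mitochondrial transcripts made up 2.54% to 4.43% of TPM at 6 h and 2.89% to 4.53% at 3 h. All 7 epithelial markers were present at both times, with CDH1, EPCAM and keratins among them, and their TPM summed to 8755 to 12360 in D. rotundifolia 3× and 9153 to 11243 in Ctrl libraries at 6 h, and to 9271 to 11658 in D. rotundifolia 3× and 9635 to 12008 in Ctrl libraries at 3 h. Of 5 leukocyte markers, PTPRC, CD3E and CD14 averaged under 1 TPM at both times, while CD68, a lysosomal protein (20.7 to 28.4 TPM), and ITGAM (1.21 to 3.64 TPM) lay above it in every library. Of 4 endothelial markers, PECAM1, VWF and KDR averaged under 1 TPM and CDH5 had 1.89 to 4.85 TPM. Of 6 fibroblast markers, COL1A1 had 8.86 to 15.8 TPM, PDGFRB averaged 0.806 TPM with D. rotundifolia 3× and 1.29 TPM with Ctrl at 3 h and less than 1 TPM at 6 h, and the rest averaged under 1 TPM or were not listed. None of these markers passed the test at either time. KRT19 was lower with D. rotundifolia 3×, with log2 changes of -0.19 at 6 h and -0.30 at 3 h (unadjusted p = 0.0282 and 0.00257 by limma). At 3 h its groups did not overlap (554 to 658 TPM against 680 to 798 TPM in Ctrl libraries), and the study's own test on counts lists it as lowered. KRT17 was higher at 6 h (0.35, unadjusted p = 0.0308 by limma), and the other epithelial markers had an unadjusted p above 0.05. Of 5 heat shock genes, which respond to stress and handling, all 5 had a higher mean with D. rotundifolia 3× at 6 h and 2 of 5 at 3 h, against 51.7% and 57.8% of all symbols, with median log2 changes of 0.12 at 6 h and -0.01 at 3 h (0.01 over all symbols at each time). Without the replicate number as a block, none of the 5 passed the test or had an unadjusted p under 0.05 in limma at either time. With that block none passed, but 3 of 5 (HSPA1A, DNAJB1 and HSPH1, all higher) had an unadjusted p under 0.05 in limma at 6 h. At 3 h 1 of 5 did (HSPA1B, lower), against 6.87% of all symbols. For the count at 6 h no share of all symbols is given, so it is not read as an excess. The summed TPM of these 5 genes was 1776 to 2263 in D. rotundifolia 3× and 1603 to 2147 in Ctrl libraries at 6 h, and 1923 to 2162 in D. rotundifolia 3× and 1943 to 2206 in Ctrl libraries at 3 h. Their part in the results at 6 h was not tested. The tables carry no read totals, so the depth of each library and an interval for counting error were not available here.

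**Figure D1:**
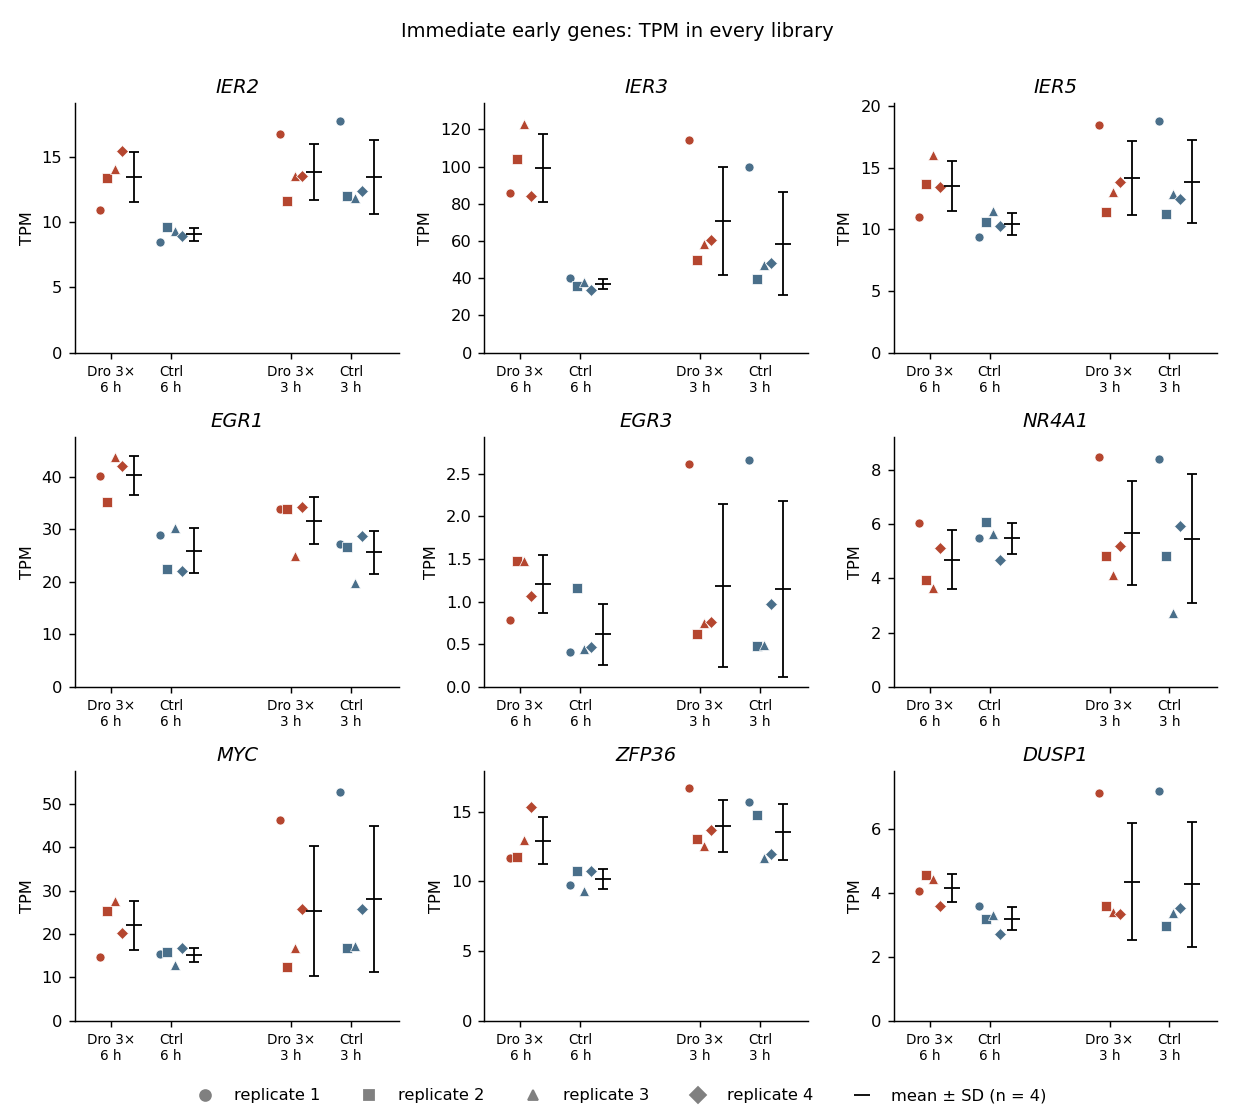
TPM of each of the 9 genes in all 16 libraries, with D. rotundifolia 3× (Dro 3×, red) left of Ctrl (blue), 6 h left of 3 h, symbols for replicate numbers and bars for mean ± SD of 4 libraries. At 6 h the IER3 values of Dro 3× (84.1 to 123 TPM) stand clear of those of Ctrl (33.6 to 40.2 TPM), and at 3 h replicate 1 is the highest in both groups for each gene but EGR1.

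After 6 h, IER3 was the member that passed the test, and its level with D. rotundifolia 3× was 2.69 times that of Ctrl. For 6 of the other 7 tested members (EGR1, IER2, MYC, IER5, ZFP36 and DUSP1) the mean was also higher with D. rotundifolia 3×, by 1.27 to 1.55 times, without a pass after adjustment over all genes. The exception was NR4A1, whose mean was lower, and EGR3 was too low to be tested. A higher mean with D. rotundifolia 3× was thus found in 7 of 8 tested members, against 51.7% of all symbols. Tests were made with limma on log2(TPM + 1) over the 14179 symbols with a mean of at least 1 TPM, with Benjamini-Hochberg adjustment and a threshold of 0.05. By this rule 1 of 8 members was called, against 0.113% of all symbols (16 of 14179, each of them higher with D. rotundifolia 3×). At an unadjusted p under 0.05, 7 of 8 members were higher with D. rotundifolia 3×, against 5.34% of all symbols. In 5 members, IER2, IER3, EGR1, ZFP36 and DUSP1, every D. rotundifolia 3× library lay above every Ctrl library, against 3.43% of all symbols. The median log2 change over the 8 tested members was 0.41, and over all symbols tested it was 0.01. The study's own test, made on counts, called far more genes at 6 h than this fit. A member without a pass at 6 h is therefore not shown to be without a response. The set was chosen with earlier results of these data known, so comparisons with all symbols, here and below, are descriptions. RNA came from whole cultures, so more cells that express a gene and more RNA per cell cannot be told apart.

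IER3 (also known as IEX-1) is a stress-induced protein that modulates apoptosis and ERK signalling. Its level at 6 h was 85.8, 104, 123 and 84.1 TPM with D. rotundifolia 3×, against 40.2, 35.8, 38.1 and 33.6 TPM in Ctrl libraries. The groups did not overlap, and the lowest treated library stood at more than 2 times the highest Ctrl library. Means were 99.2 ± 18.2 TPM with D. rotundifolia 3× and 36.9 ± 2.84 TPM with Ctrl (SD, n = 4 each). The log2 change was 1.39 (SE 0.12, 95% interval 1.11 to 1.67, adjusted p = 0.00896 by limma), the third smallest p and the 34th largest rise among 14179 symbols. A single exact permutation test gave p = 0.0286, the smallest that 4 against 4 libraries allow (two-sided). The call held with each library left out in turn, with adjusted p between 0.00879 and 0.0452 (limma), and ended when all 16 libraries were fitted together (adjusted p = 0.0613).

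IER2, a nuclear protein that acts in transcriptional control, had 10.9, 13.4, 14.1 and 15.5 TPM with D. rotundifolia 3×, against 8.47, 9.64, 9.31 and 8.94 TPM in Ctrl libraries at 6 h. All treated libraries lay above all Ctrl libraries, with replicate 1 the lowest in both groups. The log2 change was 0.51 (SE 0.10, interval 0.28 to 0.75, adjusted p = 0.189 by limma), and without the D. rotundifolia 3× library of replicate 1 it was 0.60 with adjusted p = 0.0374. IER5, which takes part in the heat shock response and in phosphatase PP2A regulation, had 11.0, 13.7, 16.0 and 13.4 TPM with D. rotundifolia 3×, against 9.42, 10.6, 11.5 and 10.2 TPM in Ctrl libraries. Its groups overlapped at a single value, the treated library of replicate 1. The log2 change of IER5 was 0.34 (SE 0.11, adjusted p = 0.488 by limma).

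EGR1 is a zinc-finger transcription factor and a standard readout of ERK signalling. At 6 h it had 40.1, 35.2, 43.8 and 42.1 TPM with D. rotundifolia 3×, against 28.9, 22.5, 30.3 and 22.1 TPM in Ctrl libraries. The groups were apart, the lowest treated value of 35.2 TPM being above the highest Ctrl value of 30.3 TPM. Means were 40.3 ± 3.74 TPM with D. rotundifolia 3× and 25.9 ± 4.25 TPM with Ctrl (SD, n = 4 each). The log2 change of 0.63 (SE 0.12, interval 0.35 to 0.90) was the second in size among the members, with adjusted p = 0.160 by limma. Its relative EGR3 was at the edge of detection, with 0.781, 1.48, 1.48 and 1.07 TPM with D. rotundifolia 3×, against 0.404, 1.15, 0.447 and 0.465 TPM in Ctrl libraries. The Ctrl library of replicate 2 stood among the treated ones. With a mean of 0.910 TPM over the 8 libraries EGR3 missed the filter, and an exact permutation test of it alone gave p = 0.0857 (two-sided).

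MYC, a transcription factor of growth and ribosome production, had 14.8, 25.4, 27.5 and 20.3 TPM with D. rotundifolia 3× at 6 h, against 15.3, 15.7, 12.9 and 16.8 TPM in Ctrl libraries. Treated replicates 2, 3 and 4 lay above every Ctrl library, and treated replicate 1 lay inside the Ctrl range. The log2 change was 0.48 (SE 0.18, interval 0.07 to 0.89, adjusted p = 0.556 by limma). NR4A1 (NUR77), an orphan nuclear receptor, went the other way in its mean, with 6.05, 3.95, 3.66 and 5.12 TPM with D. rotundifolia 3×, against 5.51, 6.09, 5.63 and 4.69 TPM in Ctrl libraries. Treated replicates 2 and 3 lay below every Ctrl library, while replicates 1 and 4 lay within the Ctrl range. For NR4A1 the log2 change was -0.20 (SE 0.14, interval -0.53 to 0.13, adjusted p = 0.779 by limma), so a rise above 0.13 on the log2 scale lay outside its interval.

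ZFP36 and DUSP1 are the members of the negative feedback. ZFP36 had 11.7, 11.8, 12.9 and 15.4 TPM with D. rotundifolia 3× at 6 h, against 9.78, 10.7, 9.34 and 10.8 TPM in Ctrl libraries. DUSP1 had 4.05, 4.57, 4.45 and 3.60 TPM with D. rotundifolia 3×, against 3.58, 3.20, 3.30 and 2.72 TPM in Ctrl libraries. Neither gene's groups overlapped, although for DUSP1 the nearest values of the groups, 3.60 and 3.58 TPM, were almost equal. The log2 change was 0.32 (SE 0.10, adjusted p = 0.445) for ZFP36 and 0.30 (SE 0.10, adjusted p = 0.491) for DUSP1, both by limma.

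**Figure D2:**
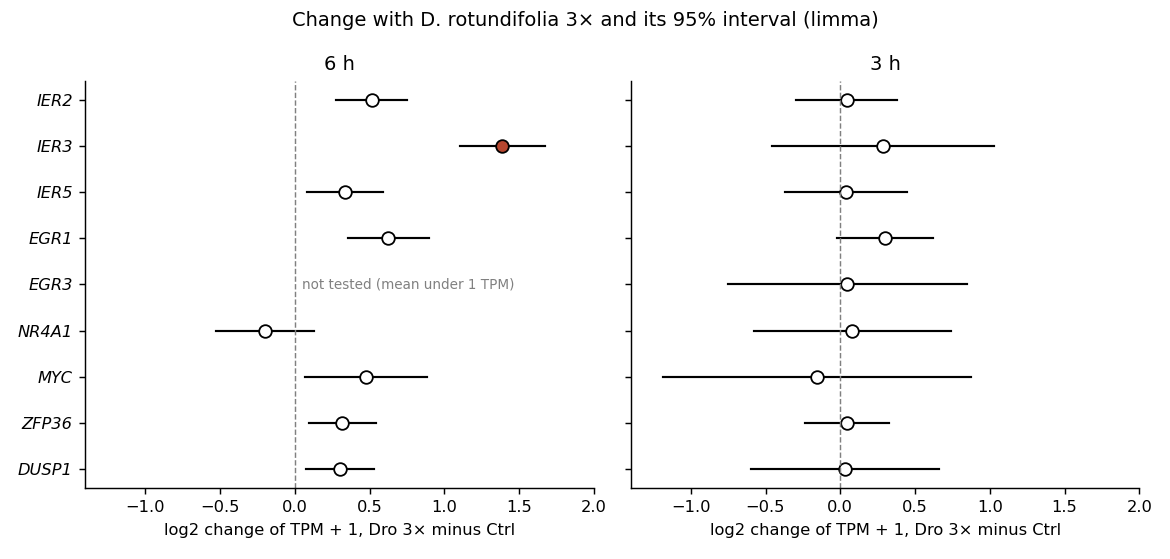
Log2 change of TPM + 1 with D. rotundifolia 3× relative to Ctrl (points) with 95% intervals of limma (lines) at 6 h (left) and 3 h (right), a filled point marking an adjusted p under 0.05. IER3 at 6 h, at 1.39, is the filled point. At 3 h every interval of this fit, which holds no replicate block, spans 0.

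After 3 h none of the 9 members passed the limma test on TPM, with or without the replicate number as a block. The study's own test, made on counts, lists EGR1 and IER3 as raised at 3 h. A missing pass here therefore does not show a missing response. By RT-qPCR in the study, which did not cover IER3, EGR1 was higher at 3 h without reaching significance. EGR1 and IER3 had the largest mean differences, 0.30 and 0.29 on the log2 scale, and the other 7 had changes between -0.16 (MYC) and 0.08 (NR4A1). Of 9 members tested, 0 were called, against 0% of all symbols (0 of 12919), and 0 had an unadjusted p under 0.05 in limma, against 2.41% of all symbols. No member's groups were apart, against 1.02% of symbols with every D. rotundifolia 3× library above every Ctrl library. The mean was higher with D. rotundifolia 3× in 8 of 9 members, against 57.8% of all symbols. The member median was 0.05 on the log2 scale, and the median of all symbols was 0.01. EGR3 passed the filter of 1 TPM through its replicate 1 libraries, and without either of them it did not.

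At this time libraries that shared a replicate number moved together. Replicate 1 was the highest library in both groups for 8 of the 9 members, all but EGR1, as it was for 15.5% of all symbols tested. MYC had 46.3, 12.4, 16.7 and 25.6 TPM with D. rotundifolia 3×, against 52.6, 16.6, 17.3 and 25.8 TPM in Ctrl libraries. EGR3 had 2.62, 0.619, 0.751 and 0.756 TPM with D. rotundifolia 3×, against 2.66, 0.474, 0.487 and 0.970 TPM in Ctrl libraries. In both genes the replicate 1 libraries of the 2 groups were close to each other and far from the rest. DUSP1 had 7.12, 3.58, 3.40 and 3.33 TPM with D. rotundifolia 3×, against 7.20, 2.97, 3.38 and 3.53 TPM in Ctrl libraries. NR4A1 had 8.49, 4.85, 4.14 and 5.21 TPM with D. rotundifolia 3×, against 8.43, 4.81, 2.71 and 5.94 TPM in Ctrl libraries. For these 2 genes, too, the group means were nearly the same, with log2 changes of 0.03 (SE 0.28) for DUSP1 and 0.08 (SE 0.29) for NR4A1. IER2, IER5 and ZFP36 spanned 11.3 to 18.8 TPM over all 3 h libraries, with log2 changes of 0.04 (SE 0.15) for IER2, 0.04 (SE 0.18) for IER5 and 0.05 (SE 0.12) for ZFP36. What sets replicate 1 apart at 3 h was not tested.

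EGR1 and IER3 were higher with D. rotundifolia 3× within every replicate number at 3 h. EGR1 at 3 h had 33.8, 33.8, 24.8 and 34.2 TPM with D. rotundifolia 3×, against 27.2, 26.7, 19.7 and 28.7 TPM in Ctrl libraries. Replicate 3 was low in both groups, and in each of the 4 same-numbered pairs the treated library was the higher, by 19.0% to 26.7%. IER3 had 114, 49.7, 58.6 and 60.5 TPM with D. rotundifolia 3×, against 99.5, 39.8, 47.1 and 48.2 TPM in Ctrl libraries. Here replicate 1 was high in both groups, and the treated library was the higher by 14.6%, 24.9%, 24.6% and 25.6% in pairs 1 to 4. These were 2 of 9 members with the treated library higher in 4 of 4 pairs, against 9.57% of all symbols, and MYC was the lower in 4 of 4 pairs, with differences of -25.5% to -0.690%, against 5.95% of all symbols. Without a term for the number, the change was 0.30 for EGR1 (SE 0.14, interval -0.03 to 0.62, unadjusted p = 0.0663 by limma) and 0.29 for IER3 (SE 0.33, interval -0.45 to 1.03, unadjusted p = 0.404 by limma). With the replicate number as a block the SE was 0.04 for each gene, and the unadjusted p was 0.000539 for EGR1 and 0.000576 for IER3, against 6.87% of all symbols under 0.05 in that fit. After adjustment over all symbols by limma p was 0.397 for both genes, so 0 members were called with the block, against 0.00774% of all symbols. Without both libraries of replicate 1 the changes were 0.30 for EGR1 and 0.32 for IER3.

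**Figure D3:**
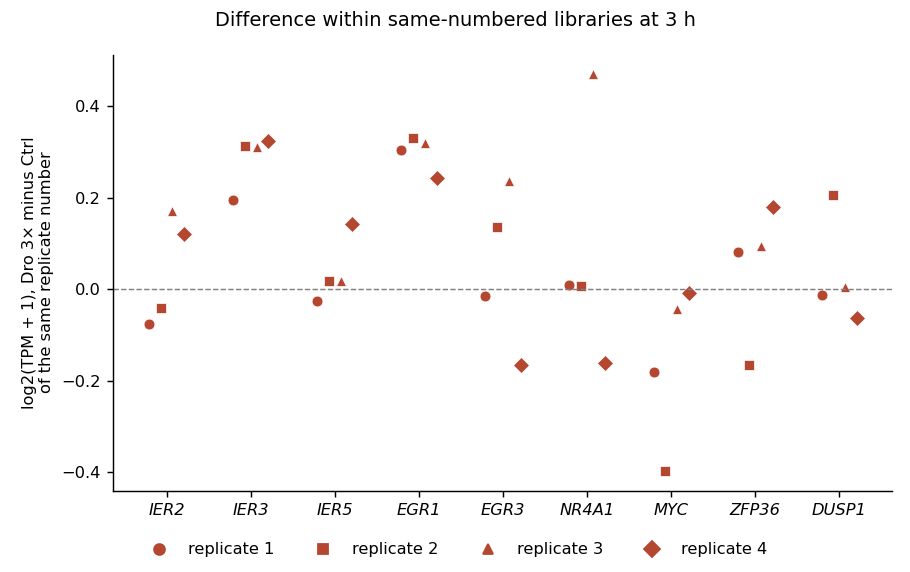
Difference of log2(TPM + 1) between the D. rotundifolia 3× and the Ctrl library of the same replicate number at 3 h, 1 point per pair and gene. All 4 points of EGR1 and of IER3 lie above 0, all 4 of MYC lie below it, and the other genes fall on both sides.

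How much of the variation went with the treatment and how much with the replicate number was split as shares of the sum of squares of log2(TPM + 1). At 6 h the treatment held 94.3% for IER3, 78.8% for EGR1 and 79.8% for IER2, with a median of 63.8% over the 9 members, against a median of 10.4% over all symbols tested. For NR4A1 it held 22.4% at 6 h, and 53.8% lay with neither. At 3 h the treatment held a median of 1.16% over the members and the replicate number 92.2%, against 4.62% and 67.4% over all symbols. EGR1 differed from the rest of the set at 3 h, with 36.5% for the treatment, 63.0% for the number and 0.471% for the remainder. Replicate numbers are labels that the 2 groups share, and a share of this kind is a description without a test.

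**Figure D4:**
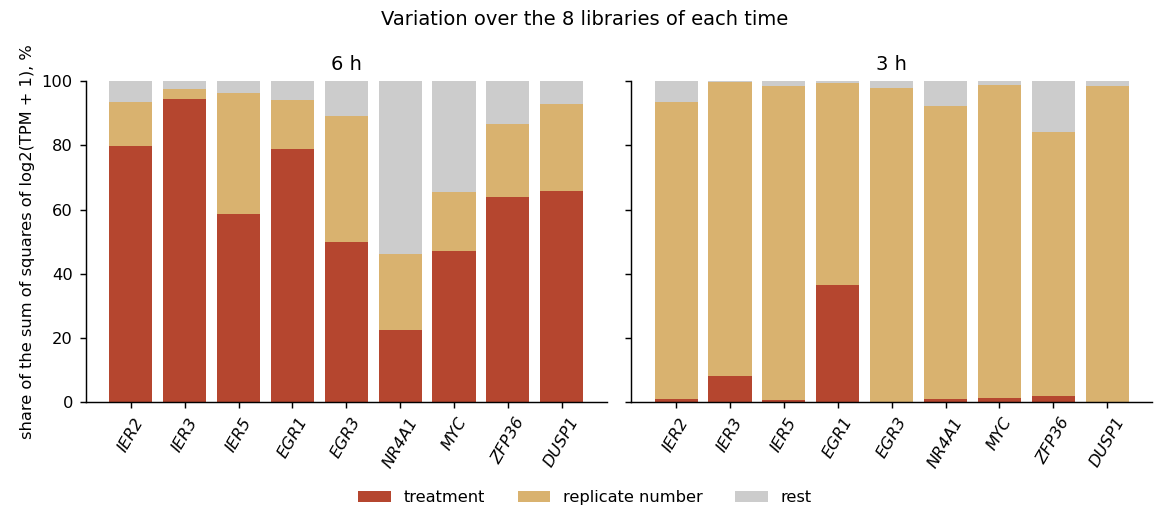
Shares of the sum of squares of log2(TPM + 1) over the 8 libraries of each time (6 h left, 3 h right) that went with treatment, with replicate number and with neither. The treatment holds most of the variation of IER3 at 6 h (94.3%), and the replicate number holds the larger share of every member at 3 h (63.0% or more).

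The libraries' common movement also shows in the correlations between members, given as a description over the 8 libraries of each time, which share treatment, replicate numbers and scaling. At 6 h NR4A1 ran against each of the other 8 members (Pearson r from -0.90 to -0.36), while the 28 pairs without NR4A1 had r from 0.40 to 0.90. At 3 h EGR1 was the member apart, with r from 0.19 to 0.65 with the other 8, and the 28 pairs without it had r from 0.69 to 0.98.

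Levels kept a similar order at both times. By the mean of Ctrl libraries at 6 h the order was IER3 (36.9 TPM), EGR1 (25.9 TPM), MYC (15.2 TPM), IER5 (10.5 TPM), ZFP36 (10.2 TPM), IER2 (9.09 TPM), NR4A1 (5.48 TPM), DUSP1 (3.20 TPM) and EGR3 (0.617 TPM). The ranges of IER5, ZFP36 and IER2 overlapped and those of all other neighbours did not. With D. rotundifolia 3× at 6 h, IER3 and EGR1 again stood above and apart, the ranges of MYC, IER5, IER2 and ZFP36 overlapped, and so did those of NR4A1 (3.66 to 6.05 TPM) and DUSP1 (3.60 to 4.57 TPM). In Ctrl libraries at 3 h, MYC (28.1 ± 16.9 TPM, SD, n = 4) and EGR1 (25.6 ± 4.03 TPM) overlapped, as did MYC and IER3 (58.6 ± 27.5 TPM). Among all listed symbols IER3 stood at the 90.1st percentile of mean TPM at 6 h and EGR3 at the 41.4th.

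The difference between times was tested as an interaction over all 16 libraries. The change with D. rotundifolia 3× was greater at 6 h than at 3 h for 8 of 9 members, against 48.4% of all symbols, and smaller for NR4A1 (difference -0.28, SE 0.34). For IER3 the change was 1.39 at 6 h and 0.29 at 3 h, a difference of 1.10 (SE 0.37, interval 0.31 to 1.90, unadjusted p = 0.00983 and adjusted p = 1.00 by limma). For IER2 the difference was 0.47 (SE 0.19, unadjusted p = 0.0240 by limma), and for EGR1 it was 0.33 (SE 0.19). MYC had a difference of 0.63 (SE 0.52). Without a term for the replicate number none of the 9 was called after adjustment, against 0.00786% of all symbols (1 of 12717), and 2 had an unadjusted p under 0.05 in limma, against 3.51% of all symbols. With the replicate number as a block at both times IER3 was called (SE 0.12, adjusted p = 0.0173 by limma), as 1 of the 9 members, against 0.252% of all symbols. With the block at 3 h alone, where the numbers acted as pairs, the SE was 0.15 and the adjusted p 0.0575 by limma, so the call depended on the block at 6 h. Both times were separate experiments, so time and experiment cannot be told apart.

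A wider list of 54 other immediate early genes was followed in the same fits. At 6 h, 45 of the 54 were tested, of which 41 had a mean above and 4 a mean below that of Ctrl, 2 were called (both higher, FOSL1 and JUNB), 23 had an unadjusted p under 0.05 in limma (all higher) and 20 had groups apart (all higher). Over all symbols the shares were 51.7% with a higher mean, 0.113% called, 5.34% higher with an unadjusted p under 0.05 and 3.43% apart and higher. The median log2 change over these 45 was 0.28. This list, too, was chosen with earlier results of these data known, so the shares are no test of it. FOSL1, the FRA-1 subunit of AP-1, averaged 78.8 ± 25.1 TPM with D. rotundifolia 3× and 25.6 ± 2.75 TPM with Ctrl (SD, n = 4 each), a log2 change of 1.54 (SE 0.21, adjusted p = 0.0481 by limma). JUNB, another AP-1 subunit, averaged 24.2 ± 1.75 TPM with D. rotundifolia 3× and 16.0 ± 1.11 TPM with Ctrl, a log2 change of 0.57 (SE 0.08, adjusted p = 0.0481 by limma). Both calls ended when any 1 library other than the D. rotundifolia 3× library of replicate 1 was left out. Without that library the list held 7 calls, against 47 of 14163 over all symbols. Next by p were ZFP36L1, a sister of ZFP36 in RNA decay, with a log2 change of 0.62 (adjusted p = 0.0532), HES1, a repressor of the Notch pathway, with 0.60 (adjusted p = 0.0626), and PHLDA1, a pleckstrin homology-like protein, with 1.28 (adjusted p = 0.0818), all by limma. FOS itself, the best known member of the class, averaged 11.1 ± 5.73 TPM with D. rotundifolia 3× and 9.76 ± 3.65 TPM with Ctrl at 6 h (log2 change 0.10, SE 0.39); it was picked for mention after its values were seen.

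At 3 h, 46 of the 54 were tested, 27 with a mean above and 19 with a mean below that of Ctrl, 0 called (0% of all symbols) and 1 with an unadjusted p under 0.05 in limma (2.41% of all symbols), and the median log2 change was 0.03. With the replicate number as a block, 0 were called and 15 of 46 had an unadjusted p under 0.05 in limma, against 6.87% of all symbols. In all 4 same-numbered pairs 13 were higher with D. rotundifolia 3×, against 9.57% of all symbols, and 6 were lower, against 5.95%. The one gene with an unadjusted p under 0.05 without the block was BHLHE40, a circadian repressor, at 32.7 ± 2.31 TPM with D. rotundifolia 3× and 39.0 ± 3.70 TPM with Ctrl (SD, n = 4 each), with every treated library below every Ctrl library (log2 change -0.24, SE 0.08, adjusted p = 1.00 by limma). GADD45B, a stress sensor, and PPP1R15A, a phosphatase subunit of the stress response, had log2 changes of 0.31 (SE 0.17) and 0.30 (SE 0.17), and both were higher in 4 of 4 pairs, with adjusted p = 0.615 and 0.397 by limma with the block. The AP-1 subunits JUN and JUND had -0.31 (SE 0.24) and -0.20 (SE 0.14), and JUN was lower in 4 of 4 pairs (adjusted p = 0.577 by limma with the block). FOSL1 spanned 41.1 to 167 TPM in D. rotundifolia 3× libraries and 33.6 to 161 TPM in Ctrl libraries at 3 h, and within the pairs it was the higher in 4 of 4 with D. rotundifolia 3× (adjusted p = 0.619 by limma with the block). From this list the study's own test on counts gives PHLDA1, PPP1R15A and CCN2 (CTGF) as raised and JUN as lowered at 3 h. Its RT-qPCR at 3 h was significant for PHLDA1 and CCN2 and not for PPP1R15A and JUN. A gene without a call here is therefore not shown to be without a response.

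**Figure D5:**
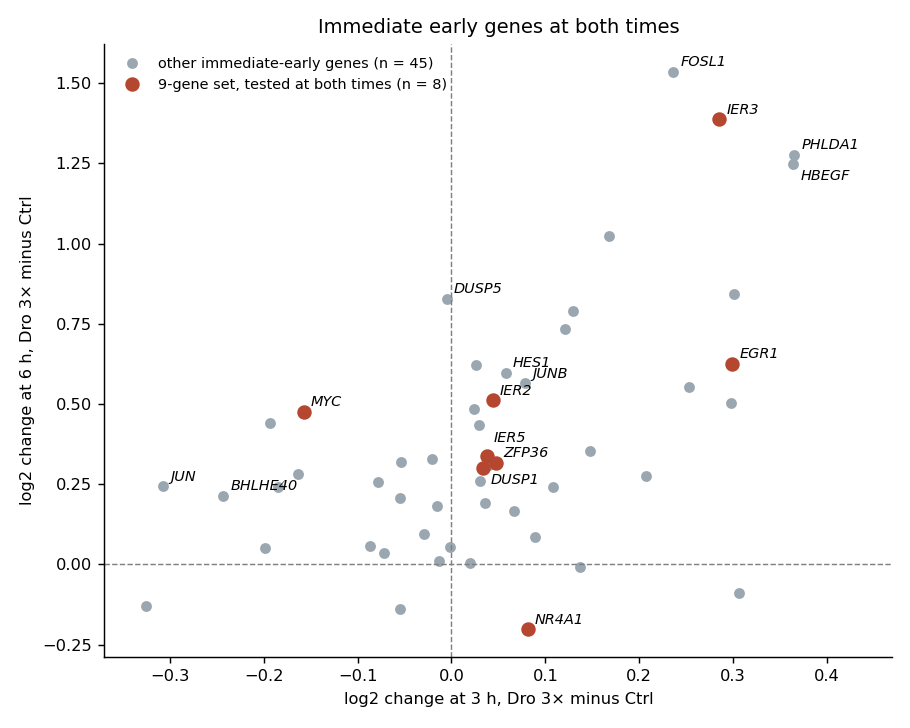
Log2 change at 3 h (horizontal) against log2 change at 6 h (vertical), D. rotundifolia 3× minus Ctrl, for 8 members (red) and 45 other immediate early genes (grey) tested at both times. Most points lie above 0 on the vertical axis, with FOSL1 (1.54) and IER3 (1.39) at the top and NR4A1 (-0.20) below, and they scatter to both sides of 0 on the horizontal axis.

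In fits without the replicate number, regulators and relatives of the members gave no call at either time. Of the SRF group (6 genes), SRF averaged 17.2 ± 1.07 TPM with D. rotundifolia 3× and 13.7 ± 1.15 TPM with Ctrl at 6 h (log2 change 0.31, SE 0.08, adjusted p = 0.288 by limma), and its coactivator MRTFB had -0.36 (SE 0.13). At 3 h ELK4, a ternary complex factor, had 0.30 (SE 0.12) and MRTFA -0.11 (SE 0.06). The EGR co-repressors NAB2 and NAB1 had log2 changes of 0.15 (SE 0.07) and 0.02 (SE 0.07) at 6 h, and of -0.09 (SE 0.10) and 0.17 (SE 0.12) at 3 h. Of 8 MAP kinase phosphatases tested at 6 h, 7 had a higher mean, against 51.7% of all symbols, and 4 an unadjusted p under 0.05 in limma, all higher, against 5.34%, with a median of 0.28. Among them DUSP5, which acts on nuclear ERK, averaged 15.3 ± 2.77 TPM with D. rotundifolia 3× and 8.16 ± 1.13 TPM with Ctrl (log2 change 0.83, SE 0.14, adjusted p = 0.0897 by limma). DUSP4, another nuclear MAP kinase phosphatase, averaged 11.7 ± 2.60 TPM with D. rotundifolia 3× and 6.28 ± 1.18 TPM with Ctrl (0.79, SE 0.17, adjusted p = 0.197 by limma). At 3 h 6 of 8 had a higher mean, with DUSP8, a phosphatase of JNK and p38, at 0.20 (SE 0.17) and DUSP4 at 0.13 (SE 0.37). These phosphatases are in the wider list above where they overlap with it, so both counts share genes. Their list was likewise chosen with earlier results of these data known.

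ZFP36L2, the other relative of ZFP36, had a log2 change of 0.33 at 6 h (SE 0.09, adjusted p = 0.352 by limma) and -0.02 at 3 h (SE 0.21), and ZFP36L1 had 0.03 at 3 h (SE 0.26). NR4A2 and NR4A3, the receptors most like NR4A1, were listed at both times but averaged under 1 TPM and were not tested. At 6 h NR4A2 averaged 0.621 ± 0.114 TPM with D. rotundifolia 3× and 0.789 ± 0.144 TPM with Ctrl (SD, n = 4 each). A mixed list of the MYC network held the MYC partner MAX, antagonists, the paralogues MYCN and MYCL, and MLX, so its counts join unlike roles. At 6 h 2 of 9 tested had a mean above and 7 a mean below that of Ctrl. Among them were MLX, a partner of the MondoA branch, at 0.26 (SE 0.08) and the antagonist MXD3 at -0.20 (SE 0.09). At 3 h 7 of 10 had a higher mean, with MNT at -0.11 (SE 0.09) and MXD1 at 0.11 (SE 0.11). Of 18 target genes of MYC in growth and ribosome production, 13 had a higher mean at 6 h and 7 at 3 h, 0 were called at either time, and the medians of 0.03 at 6 h and -0.01 at 3 h lay close to the 0.01 of all symbols.

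The genes whose values ran closest to IER3 and EGR1 were found over the 16 libraries among 9689 symbols with a mean of at least 5 TPM at each time, after the mean of each time was taken off, by Pearson correlation of log2(TPM + 1). For IER3 they were PLAU (r = 0.97), the urokinase protease, IL1A (0.97), the cytokine interleukin 1 alpha, FAM214B (0.96), FUCA1 (0.96), a lysosomal fucosidase, and IL24 (0.95), a cytokine of the interleukin 10 family. For EGR1 they were CXorf40A (r = 0.87), SPICE1 (0.87), a centriole protein, PPP1R18 (0.85), HES1 (0.85) and PER1 (0.85), a circadian clock gene. The coefficients are a description without a test, since the libraries share treatment and replicate number.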

How the data were processed

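RNA of 16HBE cells was sequenced as single-end reads from stranded poly(A) libraries, 4 per group. The authors quantified transcripts with Salmon 0.13.1, with GC-bias correction, on GENCODE (GRCh38.p13), summed them to genes with tximport and discarded genes with few reads. The authors deposited, for each time, TPM per gene and library, beside the columns of their own DESeq2 1.22.2 comparison (R 3.5.3: mean normalized count, log2 fold change and its error, statistic, p-values), which were not used. TPM summed to 997870 to 998397 per library at 6 h and 999181 to 999300 at 3 h and keeps nothing of the depth, so no count model was fitted.

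Groups follow the labels. Repeated rows of the 6 h table (89) were dropped, 170 symbols of the 3 h table were respelled as at 6 h through shared IDs, and TPM was summed per symbol. For each time, limma 3.58.1 (R 4.3.3) was run on log2(TPM + 1) of symbols averaging 1 TPM or more, with a trend, two-sided tests, Benjamini-Hochberg adjustment and a threshold of 0.05. On this scale the change of low genes is understated. The interaction covered 12717 symbols. Exact permutation tests for single genes used all splits of 4 against 4. The fits without a block were tested on simulated data with independent noise per library. Those data held no shared movement of same-numbered libraries, as was seen at 3 h. Python 3.11.15 was used for the tables and plots.

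Same-numbered libraries were checked by the correlation of their residuals, with a bound of 0.1. At 3 h all 4 numbers lay above it (0.469, 0.255, 0.219 and 0.187) and were treated as pairs, on the basis of the data. Ctrl cultures shared plates with treated ones, according to the study, but numbers are not tied to plates. The main fits hold no block, as none is named for the authors' test. Their SE and intervals at 3 h therefore include the spread between replicate numbers.

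The members and the gene lists were chosen with earlier results of these data known. Genes outside the 9 were named by rule: the 5 other immediate early genes with the smallest p at each time and any called, up to 2 genes per regulator list with the smallest p at each time, and the 5 symbols most correlated with IER3 and with EGR1. Genes of the wider list that the study's own test lists at 3 h were named as well. Alternatives covered the pseudocount (0.1 and 5), the filter (none, 5 TPM), gene IDs alone, median-of-ratios scaling, the trend, the block, a joint fit and libraries left out.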

Additional observations from a re-analysis of the deposited data

Results flagged for a closer look

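In 8 of 36 groups of 4 libraries (9 genes, 4 groups) the highest or the lowest library stood far from the other 3 by Dixon's criterion, where chance gives about 1 in 20, or 1.8 of 36. In 6 of these the library was replicate 1 at 3 h. The 9 genes were read in the same libraries and most moved together at 3 h, so the flags are not separate events. No share over all symbols is given, and the count is a description without a test. IER3 had 114 TPM in D. rotundifolia 3× replicate 1, with 60.5 TPM next, and 99.5 TPM in Ctrl replicate 1, with 48.2 TPM next. DUSP1 had 7.12 TPM in D. rotundifolia 3× replicate 1, with 3.58 TPM next, and 7.20 TPM in Ctrl replicate 1, with 3.53 TPM next. EGR3 had 2.62 TPM in D. rotundifolia 3× replicate 1 at 3 h, with 0.756 TPM next, and IER2 had 17.7 TPM in Ctrl replicate 1 at 3 h, with 12.4 TPM next.

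The other 2 were the lowest EGR1 value with D. rotundifolia 3× at 3 h, 24.8 TPM in replicate 3, with 33.8 TPM next, and the highest EGR3 value in Ctrl at 6 h, 1.15 TPM in replicate 2, with 0.465 TPM next. What sets these libraries apart was not tested.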

How the results depend on the processing

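At 6 h, 1 of the 9 genes was called, IER3, and this number was 0 with all 16 libraries in one fit (adjusted p = 0.0613 by limma), 0 with a replicate block and both replicate 1 libraries left out (adjusted p = 0.0599 by limma, an alternative chosen after seeing the data, in which 0 of 14171 symbols were called), and 1 to 2 with single libraries left out (2 without D. rotundifolia 3× replicate 1, where IER2 joined). Of the other immediate early genes 2 were called at 6 h. Brackets give the calls over all symbols in the same fit. The number became 1 with a pseudocount of 0.1 (15 of 14179), 0 with a pseudocount of 5 (12 of 14179) and 0 without a filter (7 of 24570). It was 3 with a mean of at least 5 TPM, where ZFP36L1 joined (20 of 10483), and 1 with each gene ID alone (15 of 14178). The replicate block gave 7 (40 of 14179), DUSP4, DUSP5 and DUSP6 among them (adjusted p = 0.0345, 0.0345 and 0.0407 by limma). All 16 libraries in one fit gave 1 (17 of 12717), and no trend gave 0 (12 of 14179). Without both libraries of replicate 1 it was 4 (26 of 14171), and 0 with the block as well (0 of 14171). Single libraries left out gave 0 to 7. In the difference between times the replicate block gave 1 of the 9 genes, IER3 (adjusted p = 0.0173 by limma), against 0 without it, and with the block at 3 h alone, also chosen after seeing the data, it gave 0.

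The replicate numbers at 6 h had residual correlations of 0.0564, 0.0973, 0.158 and 0.204, of which 2 of 4 passed the bound, and the libraries there share only a number. With it as a block 40 symbols were called at 6 h, against 16 without, and 32 in the difference between times, against 1. Over all symbols at 6 h, 47 were called without D. rotundifolia 3× replicate 1, 26 without both libraries of replicate 1, 7 without a filter and 4 to 12 without each of the other libraries.

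At 3 h, 95 of 95 results under other settings kept their direction and their side of the threshold. With single libraries left out, 19 of 70 changed sign: the log2 change of IER2 ranged from -0.046 to 0.17, of IER5 from -0.088 to 0.18, of EGR3 from -0.098 to 0.16, of ZFP36 from -0.035 to 0.12, of NR4A1 from -0.16 to 0.29, of DUSP1 from -0.18 to 0.27 and of MYC from -0.50 to 0.19, while IER3 (0.03 to 0.57) and EGR1 (0.18 to 0.41) stayed above 0. At 6 h, 85 of 87 kept both under other settings, and 63 of 64 with single libraries left out.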
